A study of Homo sapiens with 6 samples.

Results

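The mRNA levels of 10 genes that govern the passage of a cell through G1 were measured after knockdown of DNAJC2 in ACHN cells. The genes encode the D-type cyclins (CCND1, CCND2, CCND3), the E-type cyclins (CCNE1, CCNE2), the kinases CDK4 and CDK6, the INK4 inhibitors (CDKN2A, CDKN2B) and the transcription factor MYC. They were chosen by name, and all 10 were found among the 20532 genes of the count table. ACHN is an established human renal carcinoma line, which the labels assign to clear cell renal cell carcinoma. There were 3 shDNAJC2 libraries, from cells stably transduced with a lentiviral hairpin that lowers DNAJC2, and 3 shCtrl libraries, from cells transduced in the same way with a negative control hairpin. The sources used here do not give the sequence or number of hairpins, and the labels call the libraries biological replicates. Nothing says whether each had its own transduction, so the p-values cover only the spread among these 6 libraries, which may be partly technical.

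In G1, growth signals raise D-type cyclins, which activate CDK4 and CDK6 to phosphorylate the retinoblastoma protein RB and free E2F transcription factors. E2F factors induce the E-type cyclins, which activate CDK2 and commit the cell to S phase. INK4 proteins bind CDK4 and CDK6 and keep them from D-type cyclins. MYC, a transcription factor that dimerises with MAX, drives growth genes, and CDK4 and CCND2 are among its known targets. In clear cell renal carcinoma CCND1 is known as a target of HIF2, the factor released by loss of VHL. A part of VHL or HIF2 in the CCND1 level of these cells was not tested.

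DNAJC2, the target of the hairpin, was at 51.2, 50.4 and 38.5 CPM (TMM-normalized counts, scaled per library size) in shDNAJC2 1, 2 and 3, against 76.7, 69.8 and 86.5 CPM in shCtrl 1, 2 and 3, without overlap. The log2 fold change (shDNAJC2 over shCtrl) was −0.74, its standard error 0.15 and its edgeR adjusted p = 0.43; without shCtrl 3 it was −0.65 (adjusted p = 0.0080). Library totals ranged from 17491462 to 25760291 counts. The control library shCtrl 3 stood apart from the other controls. Of 13988 tested genes, 2080 (14.9%) differed more than 2-fold between shCtrl 1 and shCtrl 3, 48 (0.343%) between shCtrl 1 and shCtrl 2, and 78 (0.558%) between shDNAJC2 2 and shCtrl 3, so each result is given with and without that library. The library shDNAJC2 3 lay between, with 805 genes (5.75%) more than 2-fold from shCtrl 1, against 2084 (14.9%) for shDNAJC2 1. Of 11 renal markers, VIM and CDH2 were the highest (2961 to 4350 and 98.0 to 172 CPM), KRT18 was at 66.5 to 89.8 CPM and PAX8 at 2.82 to 4.64 CPM, while PAX2 and LHX1 were at 0.167 CPM or less, and CDH1 and CDH16 were at 0 in all 6 libraries. The renal carcinoma marker CA9, a known HIF target, was at 8.56, 8.32 and 7.68 CPM in shDNAJC2 and at 0.861, 1.3 and 8.83 CPM in shCtrl (log2 fold change 1.16, adjusted p = 0.49), and rose by 2.91 without shCtrl 3 (adjusted p = 1.3e-04). The 6 blood markers summed to 0.995 to 1.41 CPM in shDNAJC2 and 0.984 to 2.22 CPM in shCtrl, with CD3E at 0. The 4 endothelial markers summed to 4.07 to 6.25 CPM in shDNAJC2 and 1.15 to 5.23 CPM in shCtrl, with CDH5 at 0. The 5 fibroblast markers summed to 999 to 1453 CPM in shDNAJC2 and 1147 to 3194 CPM in shCtrl. Without shCtrl 3 their median log2 fold change was −0.27, and THY1 alone of the 5 was above 0 (0.23). COL1A1 was at 572, 623 and 1067 CPM in shDNAJC2 and at 2796, 2785 and 695 CPM in shCtrl, and was the only one of the 5 that passed without shCtrl 3 (log2 fold change −1.88). THY1 was at 233, 244 and 162 CPM in shDNAJC2 and at 177, 187 and 290 CPM in shCtrl, and PDGFRA was at 151, 141 and 186 CPM in shDNAJC2 and at 164, 171 and 128.5 CPM in shCtrl. DCN was at 21.2, 19.8 and 19.5 CPM in shDNAJC2 and at 23.3, 27.3 and 18.9 CPM in shCtrl. LUM was at 21.5, 18.5 and 18.8 CPM in shDNAJC2 and at 22.8, 24.5 and 14.1 CPM in shCtrl. The part of these marker genes in the results was not tested. In bulk RNA, fewer cells of a type and less RNA per cell cannot be told apart.

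Over all 6 libraries none of the 10 genes passed edgeR's quasi-likelihood test of the group difference after Benjamini-Hochberg adjustment over all 13988 tested genes. The smallest adjusted p was that of CDKN2B, adjusted p = 0.43. None of the 10 had an unadjusted p under 0.05 by edgeR, DESeq2 or limma-voom, and none passed by DESeq2 or limma-voom. As background, edgeR called 0% of all tested genes higher and 0% lower, 11.3% had an unadjusted p under 0.05, and DESeq2 called 0.25%. The median log2 fold change of the 10 genes was 0.22, against −0.02 over all tested genes. Without shCtrl 3, 5 of the 10 rose (CCND1, CCND2, CDK4, CDKN2B and MYC) and 0 fell, where 17.8% of 14201 tested genes rose and 17% fell. In that fit CCND2 passed the filter on low counts only through the shDNAJC2 libraries, where it was high, so it could only be tested as a gene that differs, and it is not read against that background. Of the other 9, 4 rose. The median of the 10 was then 0.31, against −0.01 over all tested genes. That fit sets 3 knockdown libraries against 2 controls and was made knowing that shCtrl 3 stands apart, so it describes those 5 libraries.

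**Figure D1:**
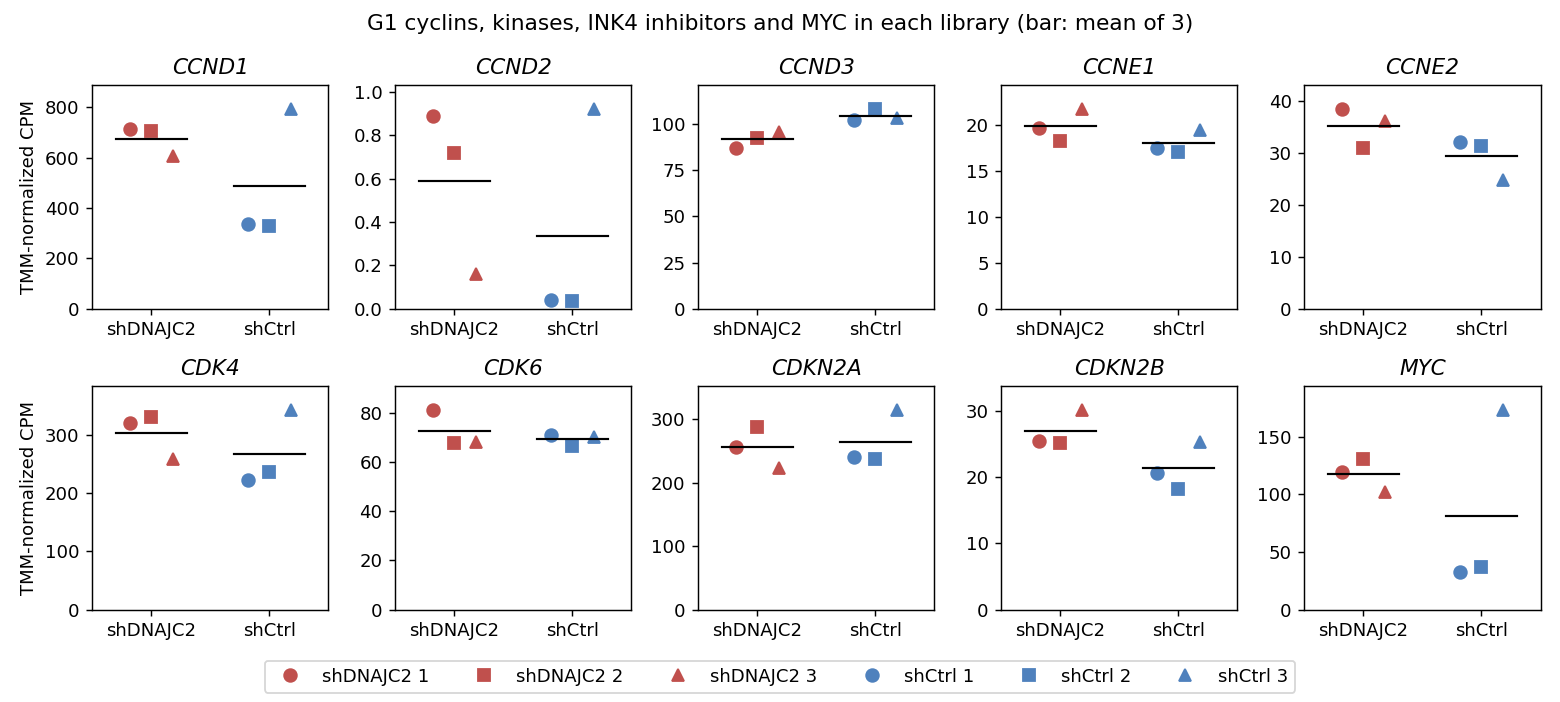
TMM-normalized CPM of each gene (vertical axes from 0, one scale per gene) in the 3 shDNAJC2 libraries (red, left) and the 3 shCtrl libraries (blue, right), with a symbol for each library number and a bar at the group mean. CCND1, CCND2, CDK4, CDKN2A and MYC were higher in shCtrl 3 than in any shDNAJC2 library. CCND3 alone separated the groups completely, with all shCtrl libraries higher.

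CCND1, the main D-type cyclin gene of these cells, was at 714, 705 and 607 CPM in shDNAJC2 1, 2 and 3, against 336, 329 and 794 CPM in shCtrl 1, 2 and 3. All 3 knockdown libraries were higher than shCtrl 1 and shCtrl 2, and shCtrl 3 was higher than each of them, so the groups overlapped. The means were 676 ± 59.2 CPM in shDNAJC2 and 486 ± 267 CPM in shCtrl (SD, n = 3 each). The log2 fold change was 0.47 with a 95% confidence interval of −0.37 to 1.31 (adjusted p = 0.52). Without shCtrl 3 CCND1 rose by 1.03 on the log2 scale, with a standard error of 0.12 and adjusted p = 6.2e-04, which is 2.04-fold. Within the controls, shCtrl 3 had 2.39 times the mean of shCtrl 1 and shCtrl 2. CCND1 (chromosome 11, 69641087 to 69654474, plus strand, GRCh38) shares 497 exonic bases with LTO1 on the other strand. LTO1 was at 106, 119 and 96.4 CPM in shDNAJC2 and at 69.0, 59.0 and 129 CPM in shCtrl, and the strand setting of the counting was not given in the sources used here, so the 2 genes' shared reads cannot be told apart.

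CCND2, the D-type cyclin gene that MYC is known to induce, was near the limit of detection. It had 17, 12 and 4 counts in shDNAJC2 1, 2 and 3, against 1, 1 and 22 counts in shCtrl 1, 2 and 3. In CPM these were 0.887, 0.718 and 0.159 in shDNAJC2 and 0.041, 0.0382 and 0.921 in shCtrl, where 3 counts, the limit that a count of 0 allows, came to 0.115 to 0.179 CPM. It passed the filter on low counts only through shDNAJC2 1, shDNAJC2 2 and shCtrl 3. Over all libraries the log2 fold change was 0.79 with a 95% confidence interval of −1.89 to 3.47 (adjusted p = 0.73). The pooled knockdown libraries, with 33 counts against 2 in shCtrl 1 and 2, had a ratio of 13.7. Pooling leaves out the spread between libraries, so this ratio describes the counts and tests nothing. The 4 counts of shDNAJC2 3 had an exact 95% Poisson interval of 1.09 to 10.2. That overlapped the 0.0253 to 5.57 of shCtrl 1 and of shCtrl 2. In edgeR's fit without shCtrl 3 the adjusted p = 0.023, but there it passed the filter only through shDNAJC2 1 and 2, so that p gives no support of its own. Against all 3 controls, with 33 counts against 24, the pooled ratio was 1.68. CCND2 (chromosome 12, 4273772 to 4305350, plus strand) shares 989 exonic bases with a gene on the same strand, ENSG00000285901. That gene was at 15.8, 14.3 and 16.0 CPM in shDNAJC2 and at 13.5, 13.4 and 12.8 CPM in shCtrl, so the CCND2 counts are uncertain.

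CCND3, the third D-type cyclin gene (chromosome 6, 41934933 to 42050357, minus strand), was the only member whose groups did not overlap, and it went the other way. Its level was 86.7, 92.4 and 95.5 CPM in shDNAJC2 1, 2 and 3, against 102, 108 and 103 CPM in shCtrl 1, 2 and 3. Here shCtrl 3 lay with the other controls. The difference was small, a log2 fold change of −0.19 with a 95% confidence interval of −0.40 to 0.03 (adjusted p = 0.43), and p = 0.1 by exact permutation (two-sided), which is the lowest value possible with groups of 3. Without shCtrl 3 the value was −0.19 again (adjusted p = 0.14). Every knockdown library was below every control for 8.43% of all tested genes and above for 7.33%, against 1 and 0 of the 10 members.

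Within a library the balance of the D-type cyclins can be read without any scaling between libraries. There were 8.23, 7.64 and 6.36 CCND1 counts for each CCND3 count in shDNAJC2 1, 2 and 3, against 3.29, 3.05 and 7.73 in shCtrl 1, 2 and 3. CCND1 made up 89.1, 88.3 and 86.4% of all D-type cyclin counts in the knockdown libraries, and 76.7, 75.3 and 88.5% in the controls. The knockdown libraries and shCtrl 3 thus had a similar balance, apart from shCtrl 1 and shCtrl 2. D-type cyclin CPM summed to 802, 798 and 703 in shDNAJC2 and to 438, 437 and 898 in shCtrl. CCND1 and CCND3 reads were not corrected for length here, since a ratio of the same genes is compared between libraries.

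**Figure D2:**
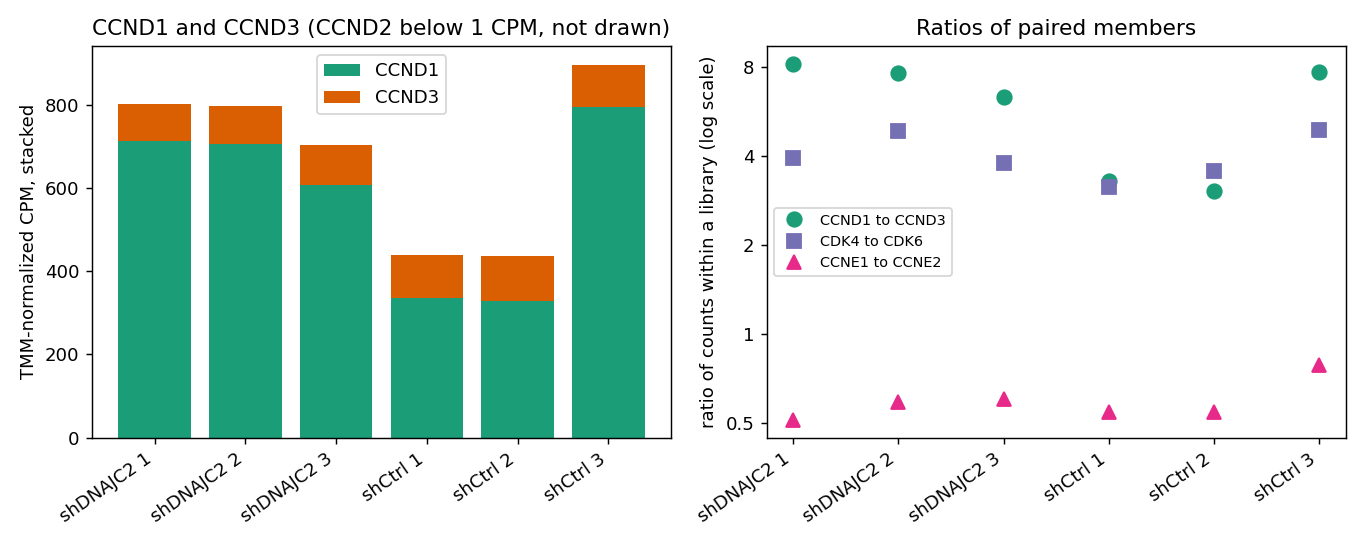
Left, stacked TMM-normalized CPM of CCND1 and CCND3 in each library (axis from 0). Right, the ratio of counts of CCND1 to CCND3, CDK4 to CDK6 and CCNE1 to CCNE2 within each library, on a log axis. The CCND1 to CCND3 ratio was 6.36 to 8.23 in shDNAJC2 libraries and 7.73 in shCtrl 3, and 3.05 to 3.29 in shCtrl 1 and 2.

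The E-type cyclin genes differed little. CCNE1, which encodes the cyclin E1 partner of CDK2, was at 19.7, 18.2 and 21.7 CPM in shDNAJC2 1, 2 and 3, against 17.5, 17.0 and 19.4 CPM in shCtrl 1, 2 and 3. The groups overlapped through shDNAJC2 2 and shCtrl 3, and the log2 fold change was 0.15 (95% interval −0.15 to 0.45, adjusted p = 0.57). Without shCtrl 3 it was 0.21 (adjusted p = 0.23). CCNE2, its paralogue, was at 38.5, 31.0 and 36.2 CPM in shDNAJC2 and at 32.2, 31.4 and 24.9 CPM in shCtrl. Its lowest library was shCtrl 3, which was the highest for CCND1 and MYC. The log2 fold change of CCNE2 was 0.26 (−0.09 to 0.61, adjusted p = 0.45), and 0.15 without shCtrl 3 (adjusted p = 0.35). The CCNE1 to CCNE2 ratio was 0.512, 0.589 and 0.601 in the knockdown libraries and 0.544, 0.543 and 0.781 in the controls, where shCtrl 3 was the highest of the 6. CCNE1 lies on chromosome 19 (29811898 to 29824308, plus strand) and CCNE2 on chromosome 8 (94879770 to 94896678, minus strand). CCNE2 shares 1629 exonic bases with INTS8 on the other strand, which was at 40.8, 36.0 and 44.7 CPM in shDNAJC2 and at 52.3, 47.8 and 28.0 CPM in shCtrl, again lowest in shCtrl 3.

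MYC had the widest range of the members above 5 CPM. Its level was 119, 131 and 102 CPM in shDNAJC2 1, 2 and 3, against 32.5, 36.6 and 174 CPM in shCtrl 1, 2 and 3. The knockdown libraries were high, shCtrl 1 and shCtrl 2 were low, and shCtrl 3 was the highest of all, at 5.03 times the mean of the other controls. The means were 118 ± 14.4 CPM in shDNAJC2 and 80.9 ± 80.3 CPM in shCtrl (SD, n = 3 each), so that the control spread alone was as large as the control mean. Over all libraries the log2 fold change was 0.54 with a 95% confidence interval of −0.96 to 2.04 (adjusted p = 0.67). Without shCtrl 3 it rose by 1.77, or 3.41-fold, with a standard error of 0.13 and adjusted p = 9.7e-05. MYC lies on chromosome 8 (127735434 to 127741434, plus strand).

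**Figure D3:**
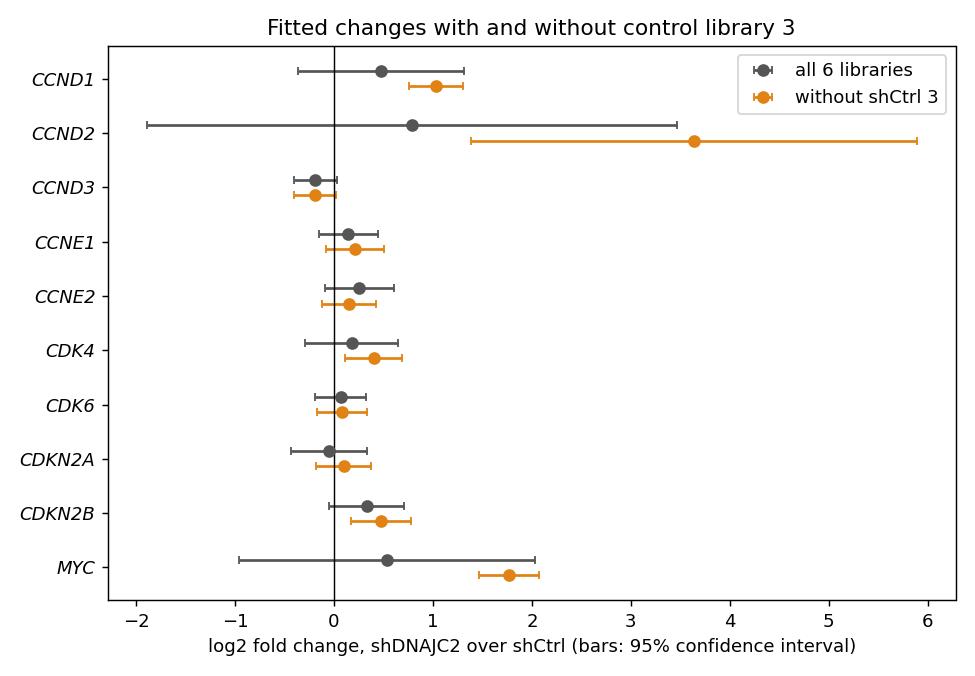
Fitted log2 fold changes (horizontal axis, shDNAJC2 over shCtrl) with 95% confidence intervals for each gene, over all 6 libraries (grey) and without shCtrl 3 (orange). All 10 grey intervals include 0, and the orange intervals of CCND1, CCND2, CDK4, CDKN2B and MYC do not.

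The genes whose profile over the 6 libraries was most like that of CCND1 or MYC were found by the root mean square difference of log2 CPM centred on each gene's mean, among 10972 tested genes with at least 5 CPM and a symbol. For CCND1 these were the sialyltransferase gene ST6GAL1 (0.0294), the adaptor gene GRB10 (0.03) and the actin-related gene ACTR3B (0.0373). ST6GAL1 was at 17.9, 17.8 and 15.9 CPM in shDNAJC2 and 8.45, 8.63 and 20.1 CPM in shCtrl. For MYC they were EIF4EBP1 (0.0947), whose product restrains cap-dependent translation, the bZIP factor gene JDP2 (0.0963) and FTH1 (0.104), the ferritin heavy chain gene. EIF4EBP1 was at 237, 257 and 180 CPM in shDNAJC2 and 57.1, 60.2 and 307 CPM in shCtrl. Each of these 6 genes had shCtrl 3 as its highest library and shCtrl 1 and 2 as its lowest. That follows from their choice by likeness to CCND1 or MYC and is no separate result.

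CDK4, the G1 kinase gene that MYC is known to induce, was at 320, 331 and 259 CPM in shDNAJC2 1, 2 and 3, against 224, 237 and 344 CPM in shCtrl 1, 2 and 3. The order of the libraries was that of MYC and of CCND1 in coarse form. In it shCtrl 3 was highest, shCtrl 1 and 2 lowest and shDNAJC2 3 between them and the others. In centred log2 CPM, CDK4 differed least from CDKN2A among the members (root mean square 0.143), against 0.307 for CCND1 and 0.704 for MYC. Over all libraries the log2 fold change was 0.18 (95% interval −0.29 to 0.65, adjusted p = 0.65). Without shCtrl 3 CDK4 rose by 0.40, or 1.32-fold, with a standard error of 0.13 and adjusted p = 0.039. CDK4 (chromosome 12, 57747727 to 57756013, minus strand) shares 1369 exonic bases with TSPAN31 on the other strand. TSPAN31 was at 135, 129 and 103 CPM in shDNAJC2 and at 97.5, 101 and 123 CPM in shCtrl.

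The 250 bases before the CDK4 start are shown because MYC and MAX bind the E-box and CDK4 is a known MYC target. A part of MYC in the CDK4 level was not tested. The sequence is that of RefSeq on GRCh38.p14 (chr12:57752311-57752560, minus strand, printed 5′ to 3′ on the strand of the gene), with E-boxes, CACGTG, in capitals. This motif reads the same on both strands.
CDK4 promoter: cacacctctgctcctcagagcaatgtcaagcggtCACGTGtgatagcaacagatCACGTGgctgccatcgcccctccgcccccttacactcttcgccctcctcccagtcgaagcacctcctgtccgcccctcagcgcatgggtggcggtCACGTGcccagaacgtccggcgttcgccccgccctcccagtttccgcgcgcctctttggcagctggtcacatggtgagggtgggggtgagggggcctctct
There were 3 E-boxes, which began 216, 196 and 101 bases before the start. Of 35116 such windows in the RefSeq table, 6.34% held the motif at least once and 0.0797% at least 3 times. Matches were listed by gene for 6 of the 10 members (CCND3, CCNE1, CDK4, CDK6, CDKN2A and CDKN2B, in 10 windows). Among these 6, CDK4 was the one with an E-box. No window of the other members was searched, so nothing is said of E-boxes there. A match of letters is a description of the window and was not tested as a binding site.

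CDK6, the other D-type cyclin kinase gene, was at 81.4, 68.0 and 68.1 CPM in shDNAJC2 1, 2 and 3, against 71.1, 66.4 and 70.3 CPM in shCtrl 1, 2 and 3. All libraries but shDNAJC2 1 lay close together, and shCtrl 3 did not stand apart. The log2 fold change was 0.07 (95% interval −0.19 to 0.33, adjusted p = 0.77), and its sign turned to −0.06 after removal of each library's GC trend (GC content 39.5%). There were 3.94, 4.87 and 3.8 CDK4 counts for each CDK6 count in shDNAJC2 and 3.15, 3.56 and 4.9 in shCtrl. CDK6 lies on chromosome 7 (92604921 to 92836594, minus strand).

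Both INK4 genes were expressed in every library. CDKN2A, which encodes the kinase inhibitor p16 and, from another start and reading frame, the MDM2 antagonist p14ARF, had between 4801 and 7530 counts per library. Its level was 256, 287 and 223 CPM in shDNAJC2 1, 2 and 3, against 240, 237 and 315 CPM in shCtrl 1, 2 and 3. The groups overlapped widely. The log2 fold change was −0.05 with a 95% confidence interval of −0.43 to 0.33 (adjusted p = 0.88). Its sign turned to 0.10 without shCtrl 3 (adjusted p = 0.55) and to 0.18 with the GC trend removed (GC content 61.4%). CDKN2B, which encodes the inhibitor p15, had 421 to 760 counts per library. Its level was 25.5, 25.2 and 30.2 CPM in shDNAJC2, against 20.6, 18.3 and 25.4 CPM in shCtrl. The groups overlapped narrowly, since shCtrl 3 lay just above shDNAJC2 2. The log2 fold change was 0.33 (−0.05 to 0.71, adjusted p = 0.43), and without shCtrl 3 CDKN2B rose by 0.48 with a standard error of 0.13 (adjusted p = 0.024).

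The 2 genes are neighbours on chromosome 9, with CDKN2A at 21967753 to 21995301 and CDKN2B at 22002903 to 22009363, both on the minus strand. CDKN2A shares 341 exonic bases with the antisense gene CDKN2B-AS1 and CDKN2B shares 0. CDKN2B-AS1 was not found among the genes of the count table. Of the other genes of the region, MTAP, a salvage enzyme gene, was at 74.1, 72.3 and 74.3 CPM in shDNAJC2 and at 56.9, 54.2 and 64.7 CPM in shCtrl, without overlap (log2 fold change 0.33, 95% interval 0.08 to 0.57, adjusted p = 0.43), and it rose by 0.41 without shCtrl 3 (adjusted p = 0.011). FOCAD fell by 0.45 without shCtrl 3, at 34.1, 30.5 and 35.3 CPM in shDNAJC2 and 43.6, 47.7 and 29.8 CPM in shCtrl. KLHL9 was at 29.7 to 43.3 CPM and IFNE at 0.538 to 2.19 CPM. DMRTA1 was at 0.251 to 0.573 CPM, and ELAVL2 was at 0 counts in all libraries.

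The INK4 promoters are shown because gene counts pool the 2 starts of CDKN2A, so that the CDKN2A values cannot say which product's mRNA was present. The windows are the 250 bases before each RefSeq start on GRCh38.p14, all on the minus strand and printed 5′ to 3′ on the strand of the gene (chr9:21995325-21995574 for the upstream start, from which p14ARF is read, chr9:21974858-21975107 for the start of p16, and chr9:22009306-22009555 for CDKN2B). GC boxes, GGGCGG on either strand, are in capitals.
CDKN2A upstream start: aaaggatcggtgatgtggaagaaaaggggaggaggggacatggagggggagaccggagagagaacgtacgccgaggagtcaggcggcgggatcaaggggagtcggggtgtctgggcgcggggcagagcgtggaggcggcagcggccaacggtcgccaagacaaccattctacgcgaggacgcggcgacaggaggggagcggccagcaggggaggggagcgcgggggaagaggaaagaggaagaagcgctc
CDKN2A p16 start: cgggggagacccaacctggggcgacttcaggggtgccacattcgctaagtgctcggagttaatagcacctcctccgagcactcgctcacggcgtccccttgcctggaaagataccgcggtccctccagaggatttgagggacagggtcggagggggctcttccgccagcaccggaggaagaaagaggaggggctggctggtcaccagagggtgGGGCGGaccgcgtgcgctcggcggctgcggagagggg
CDKN2B start: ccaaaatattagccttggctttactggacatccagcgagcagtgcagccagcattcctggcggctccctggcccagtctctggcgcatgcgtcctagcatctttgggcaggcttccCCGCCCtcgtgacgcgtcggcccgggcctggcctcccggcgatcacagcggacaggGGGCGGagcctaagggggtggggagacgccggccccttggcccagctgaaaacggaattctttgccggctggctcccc
The upstream CDKN2A window held 0 GC boxes, the p16 window 1, which began 37 bases before the start, and the CDKN2B window 2, at 134 and 78 bases. Of all 35116 windows, 42.6% held at least 1 GC box. The windows of CDKN2A and CDKN2B held 0 E-boxes.

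To set the members against each other, CPM were divided by the exonic length of each gene in GENCODE 29. On that scale CCND1 averaged 140 ± 12.3 CPM per kb in shDNAJC2 and 101 ± 55.2 in shCtrl, CDK4 95.8 ± 12.3 and 84.7 ± 20.9, CDKN2A 59.0 ± 7.47 and 61.1 ± 10.2, and MYC 39.2 ± 4.8 and 27.0 ± 26.8 (SD, n = 3 each). CCND3 followed at 14.95 to 16.5 CPM per kb in shDNAJC2 and 17.6 to 18.6 in shCtrl. CCNE1, CCNE2, CDKN2B and CDK6 lay together, with every library between 4.5 and 8.75 CPM per kb, and their order was not separated beyond the spread between libraries. CCND2 was at 0.129 CPM per kb or less. Over the 6 libraries CCND1 ranked above 97.6% of all tested genes on this scale, CDKN2A above 94.8% and CDK6 above 50.7%. The order at the top rests on the length used. With the length of the longest annotated transcript, which is 1283 bases for CDKN2A against 4329 exonic bases, CDKN2A came first at 203 CPM per kb over the 6 libraries, before CDK4 at 138 and CCND1 at 135.

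**Figure D4:**
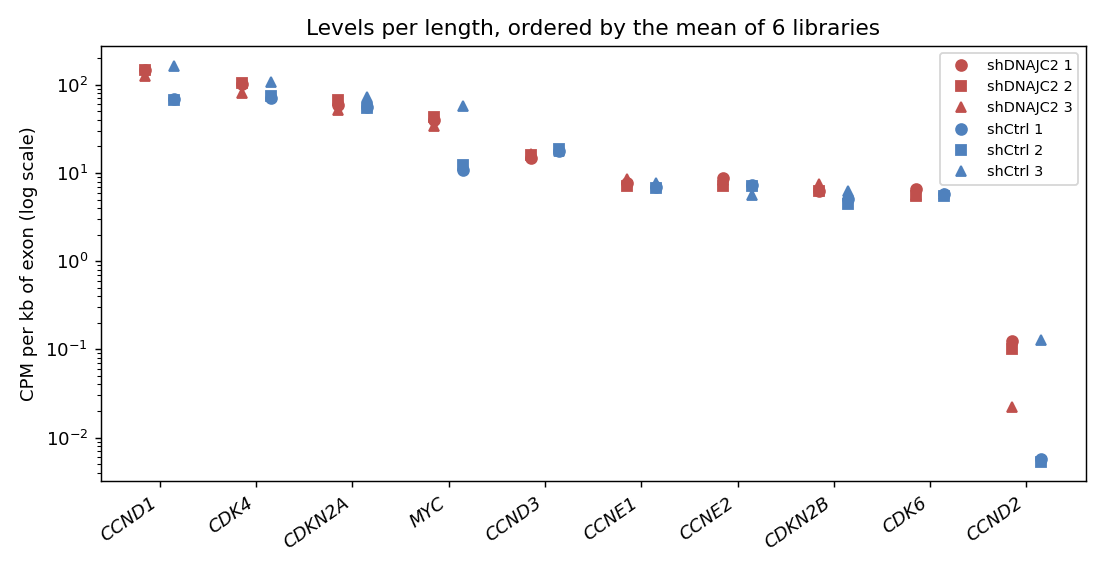
CPM per kb of exon (log axis) of the 10 genes in order of their mean over the 6 libraries, with shDNAJC2 libraries (red) left of shCtrl libraries (blue) and a symbol for each library number. CDKN2A lay at 51.4 to 72.8 CPM per kb in all libraries, and CCND2 at 0.129 or less.

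Other inhibitors of these kinases moved apart from each other. Of 5 tested (CDKN1A, CDKN1B, CDKN1C, CDKN2C and CDKN2D), 0 passed over all 6 libraries (median −0.20). Without shCtrl 3, CDKN1A rose and CDKN2C fell. CDKN1A, which encodes p21 and is known as a p53 target, was at 140, 160 and 96.4 CPM in shDNAJC2 and at 56.4, 57.6 and 183 CPM in shCtrl, and rose by 1.21 without shCtrl 3 (adjusted p = 0.0022). CDKN2C, which encodes the INK4 protein p18, was at 28.3, 28.9 and 39.5 CPM in shDNAJC2 and at 94.5, 101 and 29.2 CPM in shCtrl, and fell by 1.59 (adjusted p = 2.4e-04). CDKN2C thus ran opposite to CDKN2B, with shCtrl 3 again among the knockdown libraries. CDKN2D (p19) had no overlap between groups, at 13.8, 14.9 and 15.8 CPM in shDNAJC2 and 18.2, 16.6 and 16.3 CPM in shCtrl, and did not pass in either fit (adjusted p = 0.21 without shCtrl 3). CDKN1C (p57) was at 1.19 to 1.97 CPM.

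Of 14 genes that activate the G1 kinases or turn cyclins over, 0 passed over all libraries and 0 without shCtrl 3, where the median log2 fold change was 0.12. CCNH, the cyclin of the CDK-activating kinase, had no overlap, at 51.5, 45.5 and 45.0 CPM in shDNAJC2 and 42.3, 38.8 and 43.4 CPM in shCtrl (log2 fold change 0.19). MNAT1, the assembly factor of that kinase, was at 42.9, 35.7 and 28.9 CPM in shDNAJC2 and 29.6, 30.5 and 30.5 CPM in shCtrl. CKS1B and AMBRA1, which serve the ubiquitin ligases of p27 and of D-type cyclins, had log2 fold changes of 0.18 and −0.22.

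Of 17 genes of the RB family, E2F and DP factors and the MuvB core, 0 passed over all libraries (median 0.14). Without shCtrl 3, 6 rose and 2 fell (median 0.18). RBL1, which encodes the RB relative p107, had no overlap, at 68.3, 60.5 and 61.0 CPM in shDNAJC2 and 53.3, 51.4 and 54.4 CPM in shCtrl (log2 fold change 0.25), and did not pass without shCtrl 3 either (adjusted p = 0.063). RB1 had no overlap either, at 80.2, 63.9 and 69.1 CPM in shDNAJC2 and 62.6, 63.5 and 55.7 CPM in shCtrl (log2 fold change 0.23). The repressor gene E2F6 rose by 0.77 and the MuvB gene LIN54 by 0.65 without shCtrl 3.

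Of 13 genes of the MYC family and the MAX network, MYCN was at 0 counts in all libraries, MLXIPL was below the filter, and 0 of the 11 tested passed over all libraries (median 0.15). Without shCtrl 3, 5 rose and 2 fell (median 0.29). MYCL, counted among the 5, had 15, 15 and 19 counts in shDNAJC2 and 9, 7 and 24 in shCtrl, and passed the filter of that fit only through the shDNAJC2 libraries. MAX, the partner of MYC, was at 87.9, 90.6 and 75.8 CPM in shDNAJC2 and at 62.1, 62.9 and 85.6 CPM in shCtrl, and rose by 0.44 (adjusted p = 0.015). MXD4, which encodes a repressor that competes for MAX, had no overlap, at 54.8, 69.6 and 67.5 CPM in shDNAJC2 and 98.0, 106 and 75.5 CPM in shCtrl, and fell by 0.67 without shCtrl 3 (adjusted p = 0.0040). MXI1, MXD1 and MNT of the same network went the other way in that fit. They rose by 2.27 (edgeR adjusted p = 7.3e-04), 1.15 (0.0085) and 0.64 (0.015). MXI1 was at 38.0, 32.4 and 19.5 CPM in shDNAJC2 and at 5.78, 6.61 and 32.8 CPM in shCtrl. ZBTB17, whose product MIZ1 binds MYC at repressed promoters, fell by 0.67 (adjusted p = 0.011). MGA was at 35.3 to 43.2 CPM and did not pass in either fit.

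Of 15 known MYC target genes, 0 passed over all libraries (median 0.34, with 12 above 0). Without shCtrl 3, 11 rose and 0 fell (median 0.53). The helicase gene DDX18 was at 145, 134 and 111 CPM in shDNAJC2 and at 89.7, 92.7 and 117 CPM in shCtrl, and rose by 0.52 (adjusted p = 0.014). PPAT, which starts purine synthesis, rose by 0.71, TFAM, the mitochondrial transcription factor gene, by 0.87, and LDHA by 0.53. Of 16 E2F targets of S phase entry, 0 passed over all libraries (median 0.0037), and 1 rose and 2 fell without shCtrl 3 (median 0.07). CDC6, which loads the replicative helicase, rose by 0.60, at 152, 142 and 121 CPM in shDNAJC2 and 87.6, 94.6 and 138 CPM in shCtrl. The nucleotide synthesis genes TK1 and TYMS fell by 0.67 and 0.50 without shCtrl 3, and MCM6 did not pass (adjusted p = 0.053).

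Of 10 cyclins, kinases and other genes of S, G2 and M phase, 0 passed over all libraries, and all 10 fell without shCtrl 3 (median −0.75). CCNF, the cyclin F gene, was at 34.2, 35.3 and 49.9 CPM in shDNAJC2 and at 80.7, 83.3 and 40.0 CPM in shCtrl. MKI67, the proliferation marker, was at 168, 173 and 265 CPM in shDNAJC2 and at 416, 416 and 194 CPM in shCtrl. CDC25B and FOXM1 fell by 0.71 and 0.50. In shCtrl 3, as in the knockdown libraries, CCND1 and MYC were thus higher and these 10 genes lower than in shCtrl 1 and 2. For CCNF and MKI67, shDNAJC2 3 lay nearer to shCtrl 1 and 2 than the other knockdown libraries did. Counts in these lists without shCtrl 3 are to be read against the 17.8% of all tested genes that rose and 17% that fell in that fit. For 7 of the 10 members (70.0%) shCtrl 3 lay nearer to the shDNAJC2 mean than to the mean of shCtrl 1 and 2, against 74.6% of all tested genes, so in this the members were near the background.

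**Figure D5:**
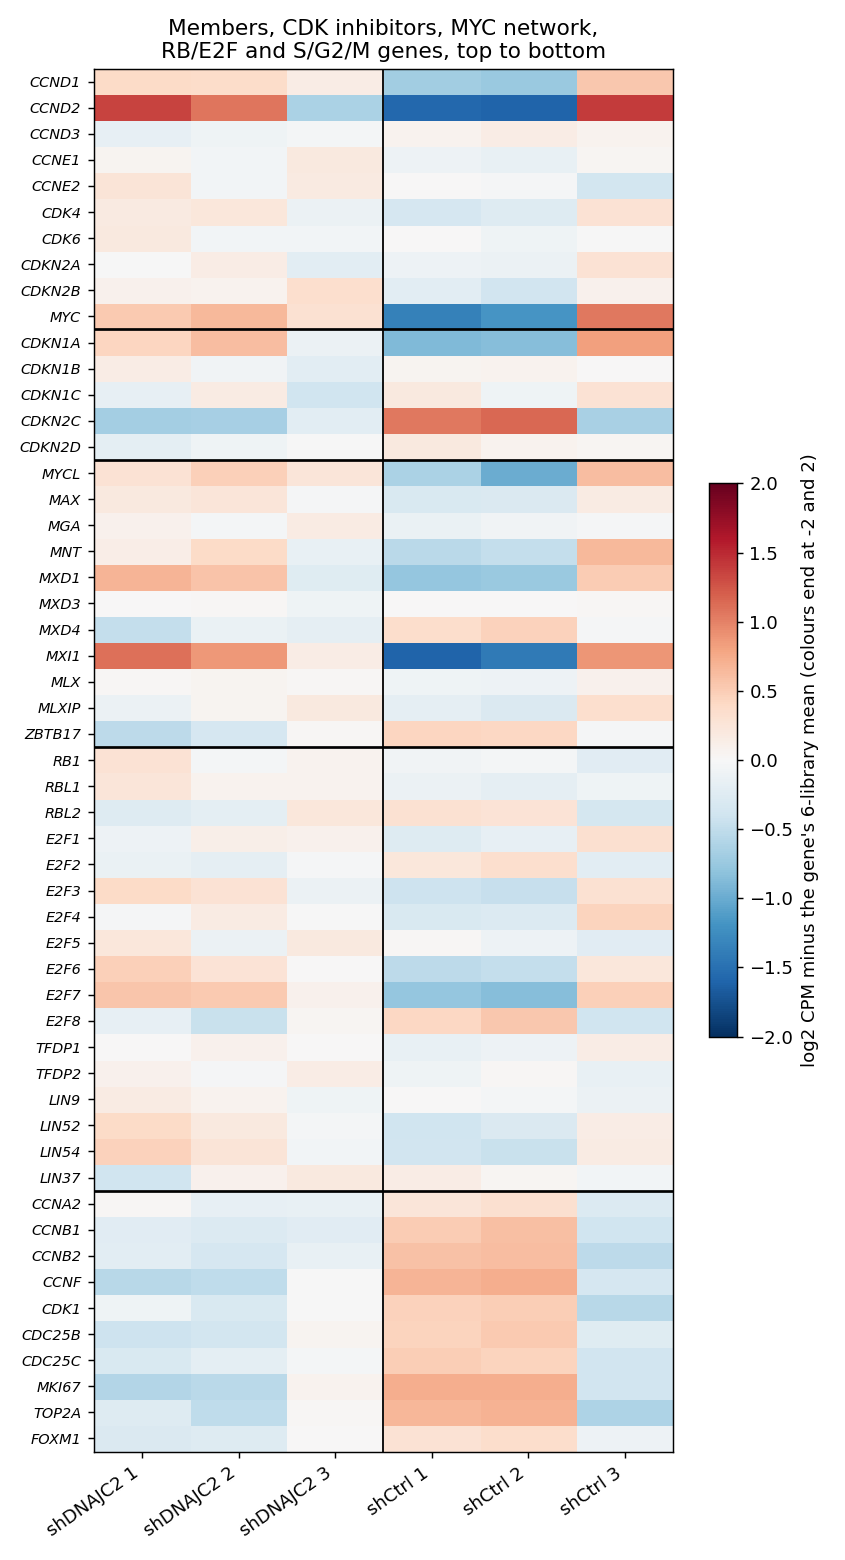
Log2 CPM of each gene minus its mean over the 6 libraries, in colour, with shDNAJC2 libraries left and shCtrl libraries right. Blocks from top to bottom are the 10 members, the other CDK inhibitors, the MYC and MAX network, the RB, E2F and MuvB genes, and the S, G2 and M phase genes. The column of shCtrl 3 resembles those of shDNAJC2 1 and 2 for MYC, CCND1, CDKN1A, CDKN2C and MKI67, and resembles the other controls for CCND3.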

How the data were processed

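RNA enriched for mRNA was sequenced as paired-end Illumina libraries from 3 shDNAJC2 and 3 shCtrl samples of ACHN cells, per the labels' protocols. The authors deposited 1 table of raw counts per gene, not normalized, as its whole numbers and unequal library totals show. The submitters' processing notes name GRCh38 as the build. No source used here names the aligner, the counting program, its annotation or its use of strand. Of the 20532 genes, 20279 were matched by identifier to GENCODE 29.

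The 2 groups were tested with edgeR 4.0.16 under R 4.3.3 (two-sided quasi-likelihood F test, TMM, filterByExpr, group as the only term, Benjamini-Hochberg adjustment over all tested genes, threshold 0.05). Log2 CPM used a prior count of 2. Alternatives were DESeq2 1.42.0, limma 3.58.1 (voom), RLE size factors, 2 other filters, a replicate block, removal of GC trends and leaving out each library. Removing GC trends without shCtrl 3 was an addition made after seeing the data. The fit was tested on simulated data.

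The members and gene lists were chosen with earlier results of these data known. The genes named are the 10 members, DNAJC2, the 4 of each list with the smallest p over all libraries, the 3 genes most like each member above 5 CPM whose log2 CPM had an SD of at least 0.3, the 2 highest markers of a list and markers at 0. PAX8, PAX2, LHX1, KRT18, CA9, PDGFRA, DCN, LUM, MYCL, DMRTA1 and the genes that overlap a member were named after their values were seen. So were MXI1, MXD1 and MNT. The value of 1 renal marker is not reported here.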

Additional observations from a re-analysis of the deposited data

How the results depend on the processing

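None of the 10 members passed in any of the alternatives that kept shCtrl 3. Over the fits that each left out 1 library, the number of genes called higher ran from 0 to 2532 and lower from 0 to 2413, all from the fit without shCtrl 3, and the members called higher from 0 to 5. DESeq2 called 6 genes higher and 29 lower, with DNAJC2 at −0.73 (adjusted p = 0.036). With a replicate block edgeR called 0 genes and 0 members, with 439 genes at an unadjusted p under 0.05 (1585 without it), and the block changed no other call; MYC was then at 1.03, and at 0.989 by limma-voom. Deviations of same-numbered libraries from their group means correlated at −0.38, −0.52 and −0.66. These values cannot decide whether the numbers mark pairs, since shCtrl 3 and shDNAJC2 3 each stood apart within their group and weigh on them.

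The ranges of log2 fold changes when each library was left out in turn were 0.27 to 1.03 for CCND1, 0.26 to 3.64 for CCND2, −0.20 to −0.15 for CCND3, 0.09 to 0.21 for CCNE1, 0.15 to 0.34 for CCNE2, 0.075 to 0.40 for CDK4, −0.024 to 0.125 for CDK6, −0.14 to 0.10 for CDKN2A, 0.24 to 0.48 for CDKN2B, 0.17 to 1.77 for MYC and −0.81 to −0.60 for DNAJC2. The sign of CDK6 turned without shDNAJC2 1 (−0.024) and with the GC trend removed (−0.063). That of CDKN2A turned without shCtrl 3 (0.10), without shDNAJC2 3 (0.056) and with the GC trend removed (0.178). With the GC trend removed and shCtrl 3 left out, edgeR called 2854 genes higher and 2436 lower and the same 5 members higher, CCND1 (1.03), CCND2 (3.59), CDK4 (0.465), CDKN2B (0.43) and MYC (1.84), with DNAJC2 at −0.705, CDK6 at −0.013 and CDKN2A at 0.307. The causes were not tested. The filter of 1 CPM in 3 libraries removed CCND2. With 1 to 22 counts per library, depth limits what can be said of CCND2.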
